A study of Mus musculus with 14 samples.

Results

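The late and early SOX9-induced libraries were 8 of the 10 RNA-seq libraries of a doxycycline time course in mouse back-skin epidermal stem cells (EpdSCs), within a series of 14 RNA-seq libraries. Late meant W6 and W12, 6 and 12 weeks after induction, and early meant W1 and W2, with 2 libraries at each timepoint and so 4 against 4. The members were chosen by timepoint label, not by any measured value. All 8 libraries were labelled as CD1 males of genotype K14rtTA; TRE-myc-Sox9, in which a keratin 14 promoter drives the doxycycline-dependent activator and the activator drives a MYC-tagged Sox9 transgene in skin epithelium. Doxycycline was injected at postnatal day 21 and continued in the feed, so W1, W2 and W6 were labelled P28, P35 and P63. The other 2 libraries of the course, D0, were taken before induction at P21 and carry the same strain, sex, genotype and sort labels; they served as a baseline for the transgene and entered the filter and the estimate of spread. The W12 libraries differed in kind. They were labelled as grafted, and the study's methods describe newborn transgenic epidermis grafted onto immunocompromised Nude females and left to heal before induction. Cells were sorted as negative for CD31, CD45, CD117, CD140a and CD34, high for CD49f (integrin alpha 6) and high for Ly6A. The transgene was on in all 8 libraries, and no library without it matched the late ages, so age, time on doxycycline and, at W12, grafting and the Nude host cannot be told apart.

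SOX9 is a transcription factor that specifies hair follicle stem cells in the embryo, maintains them in the adult bulge, and is normally silent in the epidermis between follicles. Epidermal stem cells sit on a basement membrane, which they help to build with laminins and type IV, VII and XVII collagens, and they leave it to differentiate into cornified layers. Sustained SOX9 in these cells is a model of basal cell carcinoma, a tumour with hair follicle features.

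The transgene was lower in late than in early cells but stayed above its level before induction. MYC-SOX9 gave 89.6 and 45.6 TPM (transcripts per 1000000 transcripts) in the D0 libraries before induction, 3387 and 3414 TPM at W1, 1892 and 1469 at W2, 1108 and 859 at W6 and 606 and 903 at W12. All late libraries lay below all early ones and above D0. The late minus early difference on the log2(TPM + 1) scale, which is used for every difference here, was -1.49 ± 0.22 (SE; adjusted P = 0.001), and W12 and W6 differed by -0.40 (adjusted P = 0.42). Each SE here measures the spread between replicates within timepoints. It leaves out the distance between W6 and W12 and between W1 and W2. Endogenous Sox9 gave 4.02 and 2.71 TPM at W1, 11.4 and 9.68 at W2, 9.88 and 13.6 at W6 and 5.31 and 7.91 at W12, with overlapping groups and a late minus early difference of 0.46 (adjusted P = 0.061). Reads of the transgene and of the endogenous gene are near-identical over the coding sequence, so their split depends on the transcript index.

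The labels name epidermal stem cells, and all 8 interfollicular basal markers examined passed the filter, 2 of them higher and 6 lower in late cells. Krt14 and Krt5, the keratins of basal cells, were the most abundant, and the list summed to 32063 to 36089.7 TPM early and 34904 to 46791 TPM late. Of the genes behind the sort, Itga6 (CD49f) gave 203 and 169 TPM at W1, 185 and 159 at W2, 102 and 111 at W6 and 166 and 166 at W12, and Ly6a gave 659.6 and 532 TPM at W1, 293 and 268 at W2, 275 and 421 at W6 and 1168 and 1109 at W12. Cd34, which the sort selected against, gave 0.141 and 0.0475 TPM at W1, 0.198 and 0.356 at W2, 2.66 and 5.04 at W6 and 16.5 and 32 at W12, higher in every late library than in any early one.

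Several libraries carried transcripts at odds with the sort or the sex label, and these values bear on the comparisons that use W12. All 8 endothelial markers were above 1 TPM in both W12 libraries, and their summed level was 77.1 and 164 TPM at W12 against 1.1 and 2.96 at W6 and 0.164 to 0.57 in the early libraries. Pecam1, which encodes the CD31 used to remove endothelial cells, gave 0.0978 and 0.286 TPM at W1, 0.284 and 0.239 at W2, 0.517 and 1.14 at W6 and 26.1 and 59.8 at W12. The summed level of 5 red blood cell markers was 432 and 463 TPM at W12 and 18.1 and 12.5 at W6, with 4.15 to 27.8 in the early libraries. The myeloid list summed to 189 and 449 TPM at W12, almost all of it Cd14, while 8 of its 12 genes stayed under 1 TPM in all 8 libraries. In the fibroblast list, 8 of 12 genes also stayed under 1 TPM in all 8 libraries, but 2 of its 3 tested genes were higher late. Col6a1, the third, was lower, with 27.3 and 35.4 TPM at W1, 17.6 and 15.2 at W2, 2.7 and 9.12 at W6 and 5.53 and 6.5 at W12. Dcn gave 0.199 and 0.103 TPM at W1, 2.06 and 1.18 at W2, 1.46 and 51.2 at W6 and 13.2 and 27.2 at W12, and Thy1 gave 6.17 and 7.67 TPM at W1, 0.35 and 0.821 at W2, 1.67 and 5.88 at W6 and 17 and 15.1 at W12. The T cell list summed to 34.4 to 77.9 TPM early and 162 to 272 TPM late, most of it Trbc2, with 26.5 and 38.1 TPM at W1, 52.8 and 60.8 at W2, 135 and 255 at W6 and 179 and 188 at W12. Of its 4 tested genes 3 were higher late, Trbc2 by 2.09, Lck by 1.13 and Trbc1 by 0.63, and Cd5 was not called. Cd3e, Cd3d and Cd3g stayed under 1 TPM in all 8 libraries. Xist, expressed from the inactive X chromosome of female cells and examined here after its values were seen, gave 0 and 0 TPM at W1, 0 and 0 at W2, 0.00168 and 0.00665 at W6 and 5.51 and 3.5 at W12, although the libraries were labelled male. Eif2s3y, on the Y chromosome and chosen in the same way, gave 34 and 42.1 TPM at W1, 40.7 and 41.2 at W2, 45.5 and 52.9 at W6 and 22.9 and 29.9 at W12, lowest at W12. At D0, outside the comparison, replicate 2 gave 4.61 TPM of Xist and 0.0382 TPM of Eif2s3y against 0.00103 and 45.8 TPM in replicate 1. Within a group, the W6 libraries were the least alike, with r = 0.958 between them over all genes tested, and W6 replicate 2 had the most genes above 0. Because of these values, list counts below are also given for W6 and W12 apart. The part of other cells in the late levels was not tested.

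**Figure D1:**
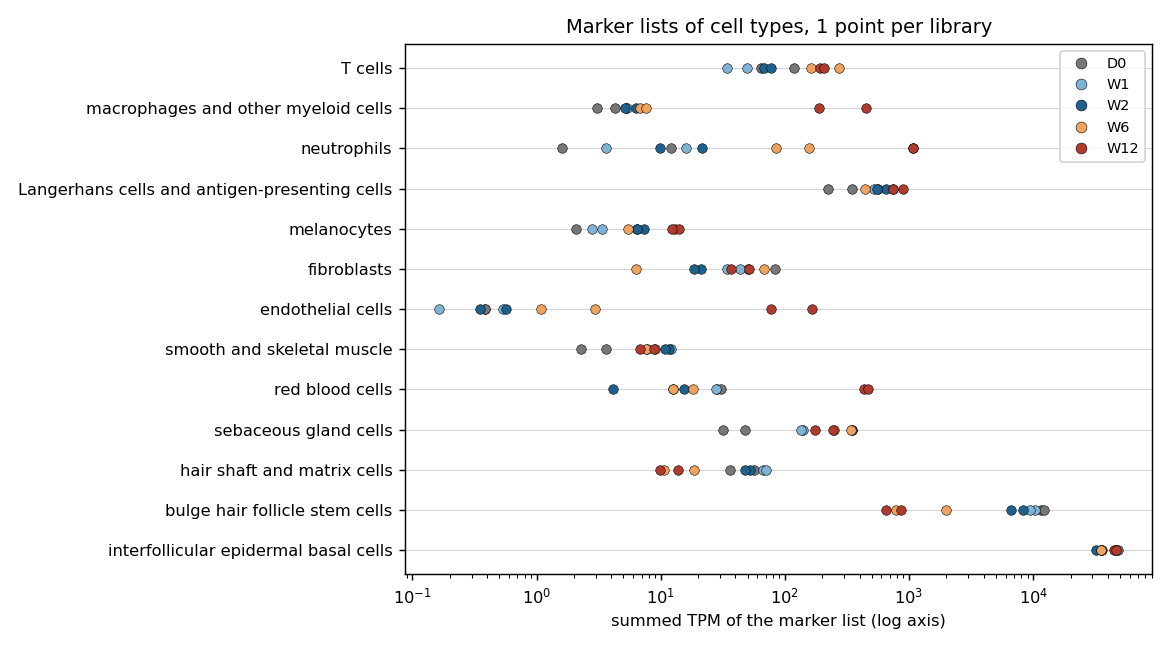
Summed TPM (x axis, log scale) of 13 marker lists (y axis), 1 point per library, coloured by timepoint. Endothelial and red blood cell lists are highest in both W12 libraries, and the bulge hair follicle stem cell list is lowest in the 4 late libraries. Without Krt15, which fell, the bulge sums overlap, at 349.6 to 620.0 TPM late and 344 to 498 early, and of its 9 tested genes Cd34, Lgr5 and Cd200 were higher late and Krt15 and Nfatc1 lower.

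Late cells differed from early cells across much of the transcriptome. Among 54332 genes, the 13110 averaging 1 TPM or more across the time course entered a limma fit on log2(TPM + 1). At an adjusted P below 0.05, 6531 genes (49.8%) passed, of which 2694 (20.5%) were higher and 3837 (29.3%) lower in late cells. All 4 late libraries lay above all 4 early ones for 1876 of the higher genes (14.3% of genes tested), and below them for 2486 of the lower genes (19%). A difference of at least 1 on the log2 scale was reached by 999 of the higher and 1236 of the lower genes. With the D0 libraries left out of the fit, 7047 genes passed. With W1 and W2 merged into 1 mean and W6 and W12 into another, 4666 passed, 1923 higher and 2743 lower. Median-ratio scaling gave 3048 higher and 3572 lower, and quantile normalization 3122 and 3535. The values are TPM, so depth per library is unknown, and in bulk samples fewer cells of a type and less RNA per cell cannot be told apart.

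The 12 largest rises included genes of secreted proteins, the cornified envelope and a wound keratin. Prl2c3, a proliferin of the prolactin family, was all but absent early and abundant late, with 0 and 0 TPM at W1, 0 and 0.497 at W2, 48.3 and 89.5 at W6 and 977 and 1307 at W12. The late minus early difference was 7.96 ± 0.22 (SE; adjusted P = 6.3e-07), and this SE leaves out the distance between W6 and W12. The late levels of Prl2c3 carried its mean past the filter. Its relatives Prl2c2 and Prl2c5 rose by 5.52 and 5.08. Krt6b, a keratin of wounded and follicular epithelium, gave 1.54 and 4.89 TPM at W1, 5.51 and 3.33 at W2, 169 and 113 at W6 and 1342 and 1330.4 at W12, a difference of 6.57 ± 0.31 (SE; adjusted P = 7.1e-06). No late library overlapped an early one for any of these genes, and each rose further at W12 except Prl2c5, whose W12 minus W6 difference was 1.25 (adjusted P = 0.098). Car2, a carbonic anhydrase, gave 0.213 and 0.131 TPM at W1, 0.459 and 0.466 at W2, 26.4 and 121 at W6 and 121 and 183 at W12. Its late minus early difference was 6.15 ± 0.40 (SE; adjusted P = 2.1e-05), and W12 and W6 differed by 1.37 (adjusted P = 0.12). Lce3c, a late cornified envelope gene, separated both late timepoints from early and from each other, with 0.496 and 0.285 TPM at W1, 0.248 and 0.257 at W2, 11.6 and 9.95 at W6 and 691 and 684 at W12. The difference between W12 and W6 was 5.88 (adjusted P = 1.4e-06). Slpi, a secreted protease inhibitor, gave 2.1 and 5.8 TPM at W1, 5.15 and 13.5 at W2, 141 and 66.9 at W6 and 1126 and 1566 at W12 and rose by 5.78. The other rises were the cystatin-like genes Cstdc5 and Cstdc6, by 5.34 and 5.60, and the small proline-rich genes Sprr2d, Sprr2g and Sprr2h, by 5.16, 5.11 and 4.98. Members of the Prl2c, Krt6, Sprr2, Lce3 and Cstdc families share near-identical sequence, so the level of a single member is uncertain.

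Large falls included keratins and secreted proteins. Krt15, a keratin of basal and bulge stem cells, gave 10002 and 9055 TPM at W1, 7757 and 6166 at W2, 429 and 1350.1 at W6 and 322 and 242 at W12. It fell by 4.13 ± 0.31 (SE), with W6 replicate 2 the highest late library and still below every early one. Krt77, a keratin of suprabasal and sweat duct cells, gave 180.5 and 260.3 TPM at W1, 219.6 and 181 at W2, 19.4 and 53.5 at W6 and 8.19 and 1.21 at W12, a difference of -4.09 ± 0.47 (SE; adjusted P = 0.00028). Ccl27a, a skin chemokine that attracts T cells, gave 9965 and 10599 TPM at W1, 8208 and 6118 at W2, 428 and 1500.1 at W6 and 497 and 323 at W12, with W6 replicate 2 again the highest late library and below every early one. Krt32, a hair keratin, gave 47.9 and 47 TPM at W1, 28.6 and 33.1 at W2, 1.42 and 3.62 at W6 and 0.877 and 0.793 at W12. Other large falls were Il22ra2, a decoy receptor for interleukin 22, by 3.60, Fcgbp by 3.57, Agr3 by 3.48, Fhl1 by 3.42, the chemokine scavenger Ackr4 by 3.33, Pkib by 3.30 and Fxyd6 by 3.25.

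**Figure D2:**
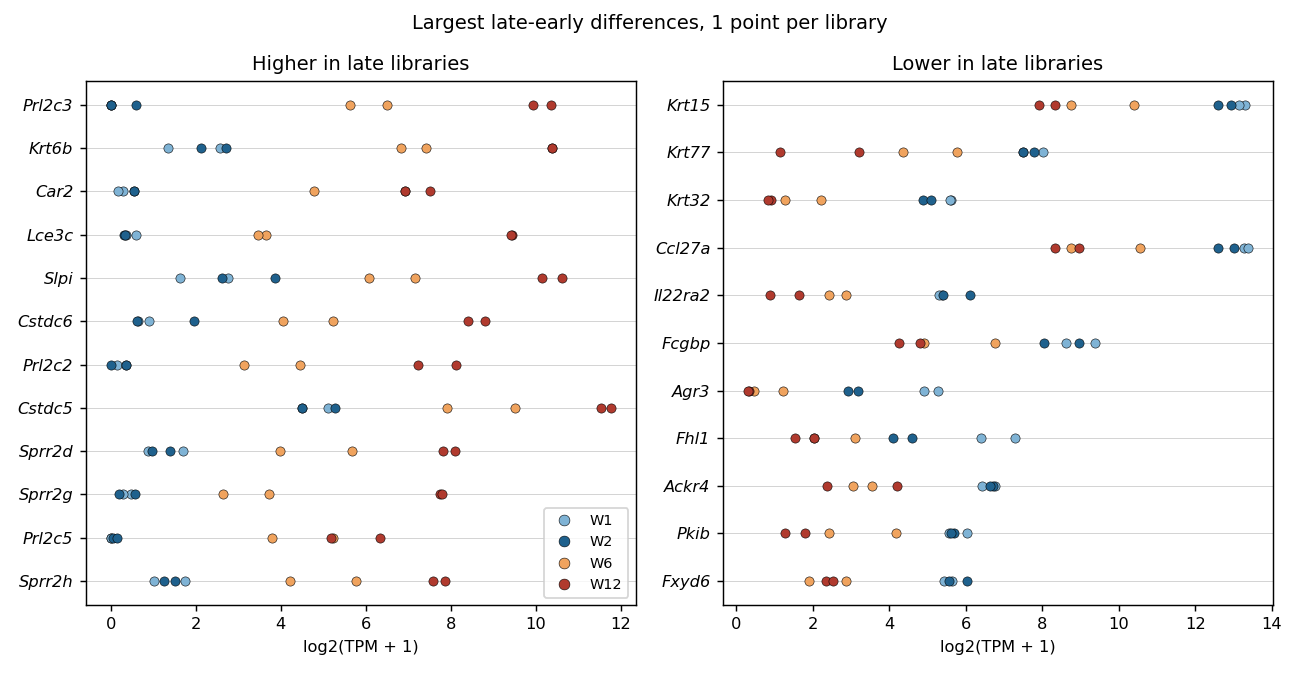
Level of the 12 genes with the largest rise (left) and of 11 of the 12 with the largest fall (right) in late against early libraries, on the log2(TPM + 1) scale (x axis), 1 point per library coloured by timepoint. Groups of 4 do not overlap for any of the 23 genes, which is how they were chosen; W12 and W6 differed past the threshold for 9 of the 12 rises and 3 of the 11 falls shown.

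The promoters of 4 leading genes are shown to give the sequence in front of transcripts with large changes. The 250 bases before the RefSeq start (GRCm38.p6) are given 5′ to 3′ on the strand of the gene, for the first 2 rises and the first 2 falls with an entry, with capitals marking letters that match a searched motif. Prl2c3 lies at chr13:12800080-12800329 (minus strand), Lce3c at chr3:92944236-92944485 (plus strand), Krt77 at chr15:101869706-101869955 (minus strand) and Krt32 at chr11:100088270-100088519 (minus strand).
Prl2c3: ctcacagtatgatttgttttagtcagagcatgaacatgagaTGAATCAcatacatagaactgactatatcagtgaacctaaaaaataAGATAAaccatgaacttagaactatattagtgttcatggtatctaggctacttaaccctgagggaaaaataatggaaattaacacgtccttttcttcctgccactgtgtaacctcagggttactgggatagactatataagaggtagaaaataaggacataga
Lce3c: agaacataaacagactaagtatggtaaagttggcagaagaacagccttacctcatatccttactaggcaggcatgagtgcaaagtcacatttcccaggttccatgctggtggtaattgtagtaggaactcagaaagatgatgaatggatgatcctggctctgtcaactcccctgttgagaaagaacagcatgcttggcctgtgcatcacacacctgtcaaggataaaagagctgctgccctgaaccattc
Krt77: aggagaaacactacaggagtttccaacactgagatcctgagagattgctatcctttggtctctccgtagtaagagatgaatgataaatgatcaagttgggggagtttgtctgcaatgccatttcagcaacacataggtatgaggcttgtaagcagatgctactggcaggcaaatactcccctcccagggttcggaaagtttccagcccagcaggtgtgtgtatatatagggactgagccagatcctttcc
Krt32: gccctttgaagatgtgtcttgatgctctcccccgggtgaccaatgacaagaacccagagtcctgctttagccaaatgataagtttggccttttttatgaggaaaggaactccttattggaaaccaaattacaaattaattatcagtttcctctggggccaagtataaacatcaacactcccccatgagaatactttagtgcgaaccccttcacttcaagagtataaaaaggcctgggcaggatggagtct
The motifs were searched on both strands. The letters searched for the AP-1 family were TGANTCA. The RUNX motif was written as TGTGGT, and the SOX motif was written as ACAAAG. For GATA factors the search used AGATAA, and for TEAD factors it used GGAATG. The NF-kB motif was written as GGGNNTTCC, and the E2F motif was written as TTTCCCGC. The Prl2c3 window held an AP-1 match starting at -209, found on both strands, and a GATA match at -163; the matches do not overlap, and the other 3 windows held none. Over the 9622 tested genes with an entry, AP-1 letters stood in 4.52% of windows, in 5.86% of the 1928 higher in late cells and in 3.87% of the 2974 lower. SOX letters stood in 11.6% of all tested windows, in 13.95% of the higher and in 10.6% of the lower. RUNX letters stood in 10.2%, 11.2% and 8.91% in the same order, and GATA letters in 5.66%, 7.0% and 5.28%. TEAD letters went the other way, with 10.3%, 9.80% and 10.8%. NF-kB letters stood in 6.55%, 6.33% and 6.29%, and E2F letters in 1.76%, 2.02% and 1.55%. Over all 27025 symbols of the table the shares were 6.87% for AP-1, 16.5% for SOX and 14.2% for RUNX. These are shares of short letter strings, not binding sites, and none was tested.

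More genes were called against early at W12 than at W6. Against the early libraries, 1679 genes (12.8%) were higher and 1832 (14%) lower at W6, and 2405 (18.3%) were higher and 4143 (31.6%) lower at W12. These comparisons share the early libraries, so their values are set side by side. With median-ratio scaling the counts for W12 against early were 3155 higher and 3608 lower, and with quantile normalization 3039 and 3694. Leaving out 1 library took the W6 total from 3511 to between 1704 and 4400, and the W12 total from 6548 to between 4072 and 7111. The direct test of W12 against W6, which uses none of the early libraries in its difference, called 873 genes higher (6.66%) and 1769 lower (13.5%) at W12. Scaling by the median ratio instead turned this balance, to 1063 higher and 845 lower, and moved the median W12 minus W6 difference of all genes from -0.16 to -0.02. Quantile normalization gave 1070 higher and 1264 lower. Without W12 replicate 1 the balance also turned, to 470 higher and 291 lower. On the values without scaling, 555 of the genes higher in late cells were farther from early at W12 than at W6 and 87 nearer. Of the genes lower in late cells, 1193 were farther and 66 nearer. The median difference from early was 0.66 at W6 and 0.81 at W12 for higher genes, and -0.57 and -1.04 for lower genes. Without shared libraries, W6 against W2 and W12 against W1 were both called in the same direction for 1499 genes (11.4%), 70.2% of the 2137 called in the first and 25.7% of the 5823 called in the second, and in opposite directions for 37. The 1499 became 179 and 268 without W2 replicates 1 and 2, and leaving out any 1 library gave 179 to 2277.

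**Figure D3:**
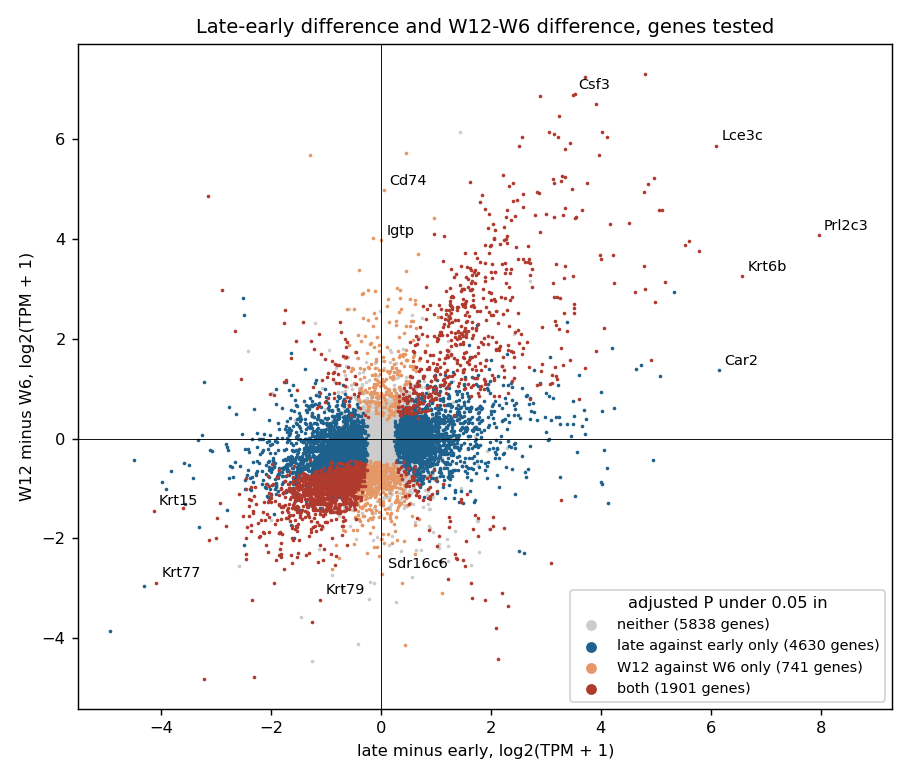
Late minus early difference (x axis) against W12 minus W6 difference (y axis), both on the log2(TPM + 1) scale, 1 point per gene tested. The 4630 genes called late against early only lie along the horizontal axis, 1901 genes are called in both, and 741 genes are called in W12 against W6 only.

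The next genes were chosen for a large difference from early that passed at both W6 and W12 while W12 against W6 did not pass, so their values are a description. Tubb3, a beta tubulin, gave 0.11 and 0.565 TPM at W1, 0.656 and 0.679 at W2, 23.8 and 19.6 at W6 and 39.1 and 28.6 at W12. Its W6 and W12 differences from early were 3.93 and 4.54. Krt42, a type I keratin, gave 0.628 and 1.26 TPM at W1, 16.4 and 12.3 at W2, 106 and 354 at W6 and 176 and 117 at W12, with 5.17 at W6 and 4.74 at W12. Sprr1b, a cornified envelope precursor, gave 7.2 and 26 TPM at W1, 14 and 28.7 at W2, 473 and 155 at W6 and 694 and 741 at W12. W12 minus W6 for these 3 genes was 0.61 (adjusted P = 0.12), -0.43 (adjusted P = 0.58) and 1.40 (adjusted P = 0.21), which does not show that the timepoints were alike. Car2, Cstdc5 and Prl2c5 completed the 6 largest such rises, and the largest such falls included Krt32, Ccl27a, Fcgbp, Agr3 and Fhl1. Ccl27a, for example, differed from early by -3.41 at W6 and -4.41 at W12.

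Most mitotic genes were higher at both late timepoints, and most S phase genes at W6. Of 30 tested genes of mitosis and G2/M, 27 were higher in late cells and none lower, with a median difference of 0.92 against -0.07 over all genes tested. Of 30 genes of DNA replication and S phase, 20 were higher and none lower, with a median of 0.72. By timepoint, 23 were higher and 0 lower than early at W6, against 13 and 2 at W12. Ccnb1, the cyclin that drives entry into mitosis, gave 46.7 and 37.5 TPM at W1, 66.6 and 75.4 at W2, 156 and 158 at W6 and 145 and 145 at W12. Rrm2, which makes deoxynucleotides for replication, gave 33.7 and 33.2 TPM at W1, 57.5 and 62.8 at W2, 173 and 163 at W6 and 95.6 and 129 at W12. Both were higher in every late library than in any early one, and W12 did not exceed W6 for either. Against early, 25 mitotic genes were higher and 0 lower at W6, against 19 and 1 at W12. Of 10 D cyclins and CDK inhibitors, 1 rose and 4 fell, and 0 were higher and 1 lower than early at W6, against 0 and 4 at W12. The shares over all genes were 20.5% higher and 29.3% lower late, 12.8% and 14% at W6, and 18.3% and 31.6% at W12. Ccnd2, a D-type cyclin that controls entry into S phase, gave 1359 and 1512 TPM at W1, 1397 and 1394 at W2, 764 and 504 at W6 and 168 and 167 at W12, a difference of -2.13 ± 0.15 (SE; adjusted P = 3.1e-05). Ccnd1, another D-type cyclin, was the one that rose, by 0.72 (adjusted P = 0.048), and its call was lost when any of 8 libraries was left out, with adjusted P from 0.052 to 0.16.

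Most wound keratin, cornified envelope and antimicrobial genes rose. Among all genes tested, 20.5% were higher and 29.3% lower late, 12.8% and 14% at W6, and 18.3% and 31.6% at W12. In the list of wound and stress keratins, 4 of 5 rose and 1 fell, and 4 were higher and 0 lower than early at W6, against 3 and 1 at W12. Krt6a gave 153 and 429 TPM at W1, 201 and 304 at W2, 4424 and 2603 at W6 and 4564 and 5379.8 at W12, and Krt16 gave 73.8 and 148 TPM at W1, 43.7 and 46.7 at W2, 668 and 432 at W6 and 2402 and 2578 at W12. Krt79, a keratin of the follicle opening and sebaceous duct, was the one that fell, with 2045 and 2648 TPM at W1, 2838 and 3670.4 at W2, 6417 and 2375 at W6 and 327 and 528 at W12. Only the W12 libraries were low, and its call was lost when any of 6 libraries was left out, with adjusted P from 0.053 to 0.11. Of 16 cornified envelope genes, 12 rose and 1 fell, and 8 were higher and 0 lower than early at W6, against 13 and 2 at W12. Of 11 alarmins and antimicrobial genes 8 rose and 2 fell, and 6 were higher and 1 lower than early at W6, against 8 and 2 at W12. S100a8 and S100a9, the calprotectin subunits made by stressed keratinocytes and by neutrophils, rose by 4.80 and 4.79. Of 8 neutrophil markers, which include these 2 genes, 4 stayed under 1 TPM in all 8 libraries and Elane was at 0 in all of them. Cxcr2, a receptor of neutrophils, gave 0.158 and 0.192 TPM at W1, 0.271 and 0.274 at W2, 0.853 and 0.971 at W6 and 3.2 and 2.32 at W12, and Retnlg gave 0 and 0 TPM at W1, 0 and 0 at W2, 0.0318 and 0.0711 at W6 and 1.8 and 0.772 at W12, both highest at W12. The part of neutrophils was not tested. Defb14, a defensin, gave 0.617 and 1.91 TPM at W1, 1.77 and 1.72 at W2, 13.6 and 10.1 at W6 and 169 and 158 at W12.

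Most laminin and basement membrane genes were lower at both late timepoints, and integrins were mixed. The shares over all genes tested were 20.5% higher and 29.3% lower late, 12.8% and 14% at W6, and 18.3% and 31.6% at W12. The integrin counts at W12 were near those shares. Of 16 tested laminins and basement membrane genes, 13 fell and none rose, and 0 were higher and 13 lower than early at W6, against 1 and 10 at W12. Their median difference from early was -1.35 at W6 and -1.45 at W12. Col4a6 and Col4a5, chains of type IV collagen, fell by 2.74 and 2.42. Col7a1, the anchoring fibril collagen, gave 144 and 153 TPM at W1, 114 and 102 at W2, 38.6 and 36.1 at W6 and 24.4 and 27.5 at W12, with no overlap between late and early. Of 10 integrins, 5 fell and 2 rose, and 0 were higher and 6 lower than early at W6, against 2 and 4 at W12. Itga3 and Itgb4, subunits of laminin receptors, fell by 1.94 and 1.43. Cdh1, the epithelial cadherin, gave 514 and 440.3 TPM at W1, 551 and 466 at W2, 229 and 145 at W6 and 77.3 and 89.1 at W12, a difference of -1.99 ± 0.17 (SE; adjusted P = 6.9e-05). Vim, a mesenchymal and endothelial filament gene, rose by 2.37, and it was at 1.57 and 4.14 TPM at W6 and 53.5 and 104 at W12. The study names Vim among genes that SOX9 induces directly in cultured epidermal stem cells. Endothelial markers were also high in the W12 libraries, and the part of either in the rise was not tested.

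In Notch, Hedgehog and Wnt lists more genes fell than rose, and in the EGF family the ligands rose. More genes fell than rose over all genes tested as well, 29.3% against 20.5% late, 14% against 12.8% at W6 and 31.6% against 18.3% at W12. Of 9 Notch genes, 7 fell and none rose, and 0 were higher and 6 lower than early at W6, against 0 and 7 at W12. Notch1, a receptor that promotes epidermal differentiation, gave 46.6 and 50.3 TPM at W1, 39.6 and 40.7 at W2, 19.7 and 13 at W6 and 4.87 and 7.39 at W12, and Jag2, a ligand, gave 284 and 319 TPM at W1, 258 and 276 at W2, 129 and 74.3 at W6 and 40.7 and 57.4 at W12. Of 8 Hedgehog pathway genes, 7 fell and none rose, and 0 were higher and 4 lower than early at W6, against 0 and 8 at W12. The co-receptor Gas1 fell by 1.97 and the effector Gli2 by 1.23. Of 18 Wnt receptors, inhibitors and targets, 13 fell and 2 rose, and 1 was higher and 9 lower than early at W6, against 1 and 14 at W12. Axin2, a target of Wnt signalling, gave 11.4 and 11.8 TPM at W1, 8.77 and 9 at W2, 2.54 and 4.61 at W6 and 1.26 and 1.19 at W12, and the inhibitor Wif1 gave 0.0628 and 0 TPM at W1, 0.828 and 0.481 at W2, 1.03 and 33.8 at W6 and 13.8 and 20.1 at W12, high in 3 of 4 late libraries. The fibroblast marker Dcn was high in the same 3 late libraries and low in W6 replicate 1. Of the other fibroblast markers Thy1 was higher late, by 1.28, and Fbn1 reached 0.58 and 1.41 TPM at W12. Col6a1 was lower late and 8 stayed under 1 TPM in all 8 libraries, and the sort was negative for CD140a, a fibroblast surface marker. The part of fibroblasts was not tested. Of 9 EGF family genes, 6 rose and 3 fell, and 5 were higher and 3 lower than early at W6, against 6 and 3 at W12. Areg (amphiregulin) gave 3.34 and 3.17 TPM at W1, 5.02 and 2.71 at W2, 26.8 and 18 at W6 and 72.1 and 88.8 at W12, Nrg1 (neuregulin) gave 2.88 and 4.93 TPM at W1, 2.96 and 3.83 at W2, 36.3 and 30.9 at W6 and 44.4 and 42.7 at W12, and both were higher in every late library than in any early one. The 3 that fell were the receptors Erbb3, Erbb2 and Egfr, by 1.87, 1.69 and 0.74.

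The transcription and chromatin factor lists are read against the shares of all genes, 20.5% higher and 29.3% lower late, 12.8% and 14% at W6, and 18.3% and 31.6% at W12. Of 17 epidermal transcription factors, 11 fell and 2 rose, and 2 were higher and 3 lower than early at W6, against 4 and 11 at W12. Median-ratio scaling gave 7 falls. The 13 calls became 7 or 8 without either replicate of W1 or W2 or without W12 replicate 1. Gata3, a regulator of epidermal differentiation, gave 148 and 173 TPM at W1, 171 and 116 at W2, 53.1 and 94.2 at W6 and 27.2 and 27.8 at W12, while Prdm1 rose by 2.01. Of 14 hair follicle stem cell and outer root sheath factors, 7 fell and 1, Tbx1, rose, and 2 were higher and 3 lower than early at W6, against 2 and 9 at W12. Nfatc1, which keeps bulge stem cells quiescent, gave 61.8 and 61.2 TPM at W1, 71.8 and 62.7 at W2, 46.6 and 27.7 at W6 and 12.3 and 13.5 at W12, and Vdr, the vitamin D receptor, gave 149 and 124 TPM at W1, 198 and 166 at W2, 84 and 73.1 at W6 and 35.2 and 40.3 at W12. None of the 3 tested of 4 RUNX family genes passed at an adjusted P below 0.05 with limma, and 1 had an unadjusted P below 0.05. With empirical Bayes without a trend, 1 passed. By timepoint, 0 were higher and 0 lower than early at W6, against 0 and 1 at W12. Runx1, a DNA-binding member, gave 32.1 and 29 TPM at W1, 74 and 53.8 at W2, 42.5 and 54 at W6 and 22.4 and 29.3 at W12. At W12 it was lower, with differences of -0.76 (adjusted P = 0.009) against early and -0.88 (adjusted P = 0.023) against W6, the second lost with median-ratio scaling. Of 26 SWI/SNF and MLL complex genes, 18 fell and 1 rose, and 0 were higher and 8 lower than early at W6, against 0 and 21 at W12. Kmt2d gave 8.18 and 10.5 TPM at W1, 6.55 and 6.42 at W2, 3.98 and 2.57 at W6 and 0.823 and 1.31 at W12. Over all genes, transcript length differed with the direction of the call. Genes lower in late cells had a median transcript length of 3949.5 bases and genes higher a median of 2360.0 bases, with 3043 over all genes tested, and the Spearman correlation of length with the late minus early difference was -0.30 across 13099 genes, which are not independent. Its part in the falls was not tested.

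More metabolic genes rose than fell late against early, with a different balance at W6 and W12 for glycolysis. For all genes tested the shares were 20.5% higher and 29.3% lower late, 12.8% and 14% at W6, and 18.3% and 31.6% at W12. Of 26 cholesterol and fatty acid synthesis genes, 14 rose and 2 fell, and 18 were higher and 0 lower than early at W6, against 13 and 3 at W12. Msmo1, a sterol oxidase, gave 25.4 and 34.6 TPM at W1, 30.6 and 35 at W2, 143 and 97.3 at W6 and 173 and 193 at W12. The 8 sebaceous gland markers summed to 134 to 350.4 TPM early and 173 to 343 TPM late, which overlap, and 3 of them stayed under 1 TPM in all 8 libraries. Mgst1, the most abundant, had a late minus early difference of 0.07 (adjusted P = 0.75), and the other 2 tested were higher late. Scd3, a fatty acid desaturase, gave 0.93 and 1.54 TPM at W1, 1.98 and 1.99 at W2, 19.8 and 12.2 at W6 and 7.94 and 12.3 at W12, and Cidea, a lipid droplet gene, gave 1.81 and 2.67 TPM at W1, 2.81 and 2.78 at W2, 13.8 and 4.73 at W6 and 3.61 and 6.19 at W12. The part of sebaceous cells was not tested. Of 23 glycolysis and hypoxia genes, 12 rose and 2 fell. By timepoint, 6 were higher and 5 lower than early at W6, against 14 and 1 at W12, the libraries with endothelial and red blood cell markers. In the direct test 10 were higher at W12 than at W6. Pgk1, a glycolytic kinase, gave 133 and 165 TPM at W1, 164 and 188 at W2, 290.2 and 348 at W6 and 439 and 421 at W12. Gsta4, a glutathione transferase, led the NRF2 targets, with 1.07 and 2.73 TPM at W1, 3.83 and 5.63 at W2, 50.5 and 90.9 at W6 and 191 and 218 at W12. Of 19 NRF2 targets 10 rose and 3 fell, and 8 were higher and 0 lower than early at W6, against 10 and 3 at W12. Of 74 oxidative phosphorylation subunits, 32 rose and 2 fell, with a median of 0.39, and 14 were higher and 0 lower than early at W6, against 20 and 2 at W12. The 34 calls depended on the libraries, with 12 without W1 replicate 1, 14 without W1 replicate 2, 13 without either W2 replicate, 16 without W6 replicate 2, 14 without either W12 replicate and 53 without either D0 replicate.

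Matrix protease, cytokine and simple keratin genes were called late against early largely through W12. All genes tested gave shares of 20.5% higher and 29.3% lower late, 12.8% and 14% at W6, and 18.3% and 31.6% at W12. Of 17 matrix proteases and inhibitors, 12 rose and 4 fell late against early, but 4 were higher and 3 lower than early at W6, against 12 and 4 at W12. Mmp13, a collagenase, gave 0 and 0 TPM at W1, 0.0412 and 0.0604 at W2, 0.0658 and 0 at W6 and 74.3 and 109 at W12. Its W12 levels carried its mean past the filter, so it entered the counts through the group where it was high. Timp1, a protease inhibitor, gave 0.114 and 0.239 TPM at W1, 0.472 and 0.597 at W2, 5.21 and 4.74 at W6 and 76.1 and 74.4 at W12, so it was above early at W6 as well. Of 24 chemokines, interleukins and cytokines, 14 rose and 4 fell, and 5 were higher and 4 lower than early at W6, against 15 and 5 at W12. Il6 gave 0.447 and 0.0652 TPM at W1, 0.477 and 0.105 at W2, 0.409 and 0.278 at W6 and 70.6 and 118 at W12, and Csf3, a granulocyte growth factor, gave 0 and 0.0321 TPM at W1, 0.114 and 0 at W2, 0.135 and 0 at W6 and 73.9 and 214 at W12. Both also passed the filter through their W12 levels. Il36g, a keratinocyte cytokine, was above early at both, with 1.21 and 1.77 TPM at W1, 1.57 and 2.89 at W2, 16.3 and 15.1 at W6 and 51.2 and 40.6 at W12. The keratins Krt8, Krt18 and Krt19 of simple epithelia were at 46.3 and 145, 32.9 and 105 and 44.4 and 156 TPM at W12, with 1 early library, W2 replicate 1, and W6 replicate 1 above their own replicates. With W6 and W12 merged into 1 mean and W1 and W2 into another, Mmp13, Il6, Csf3, Krt18, Krt19 and Vim no longer passed, with adjusted P from 0.06 to 0.1. In that fit the calls of the matrix protease list went from 16 to 9 and those of the cytokine list from 18 to 11. In these same W12 libraries the endothelial and red blood cell lists were high, and their part was not tested.

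Many interferon-stimulated genes were lower than early at W6 and higher at W12. Among all genes tested, 12.8% were higher and 14% lower than early at W6, and 18.3% and 31.6% at W12. Of 18 interferon-stimulated genes, 10 were lower than early at W6 and none higher, while 13 were higher at W12 and 1 lower. In the direct test 13 were higher at W12 than at W6 and none lower, with a median difference of 1.98 against -0.16 over all genes. Rtp4 gave 1.51 and 1.19 TPM at W1, 1.3 and 0.335 at W2, 0.0916 and 0.108 at W6 and 18.3 and 16.6 at W12, and Gbp2, a guanylate-binding protein, gave 4.12 and 1.9 TPM at W1, 5.2 and 2.42 at W2, 0.636 and 1.39 at W6 and 31.4 and 35 at W12. Of 16 MHC class I genes, 10 were lower than early at W6 and 3 at W12, where 3 were higher. At W12 these counts were near or below the shares of all genes. Tap1, a peptide transporter, gave 132 and 108 TPM at W1, 181 and 132 at W2, 48.5 and 44.5 at W6 and 53.3 and 63 at W12. Against early, 47 genes passed in opposite directions at W6 and W12, 32 of them lower at W6 and higher at W12. The genes with the largest opposite differences included those of MHC class II. Cd74, the invariant chain of MHC class II, gave 22.5 and 14.3 TPM at W1, 21.6 and 17 at W2, 3.2 and 2.09 at W6 and 102 and 124 at W12, and H2-Aa, a class II chain, gave 12.4 and 8.89 TPM at W1, 13.1 and 8.55 at W2, 1.48 and 1.74 at W6 and 45.1 and 37.5 at W12. Igtp, an interferon-induced GTPase, gave 5.41 and 5 TPM at W1, 7.24 and 5.05 at W2, 0.636 and 0.714 at W6 and 23.1 and 28.2 at W12. The W6, early and W12 libraries did not overlap for these 3 genes, which were chosen for opposite differences from early. Cd207, a marker of Langerhans cells, was under 1 TPM in all 8 libraries, and 4 of the 6 tested genes of its list, MHC class II genes with Cd74, were higher at W12 than at W6. In the other order, Sdr16c6, Slc12a2 and the glucose transporter Slc2a4 had their highest means at W6, and Slc2a4 gave 5 and 4.86 TPM at W1, 4.67 and 5.42 at W2, 10.8 and 11 at W6 and 2.19 and 2.14 at W12.

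**Figure D4:**
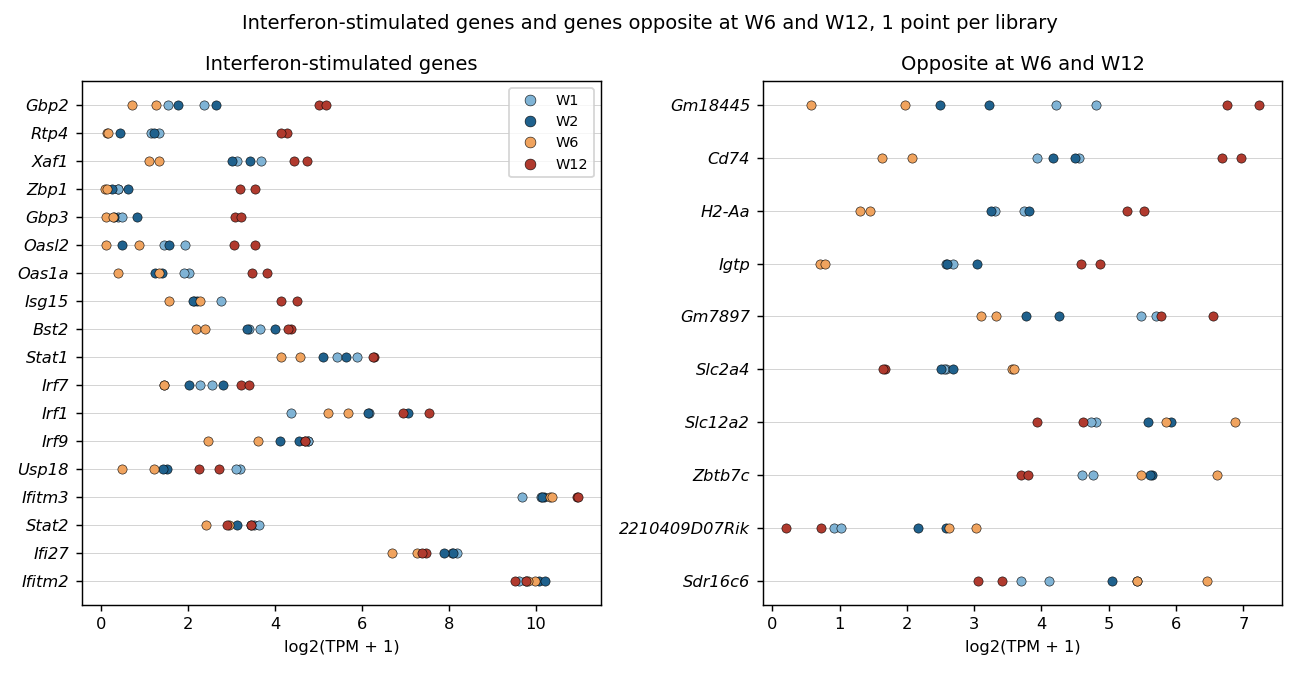
Level on the log2(TPM + 1) scale (x axis) of the 18 tested interferon-stimulated genes (left) and of the 10 genes with the largest opposite differences at W6 and W12 (right), 1 point per library coloured by timepoint. For Cd74, H2-Aa and Igtp the W6 libraries lie below the early libraries and the W12 libraries above them.

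The lists together are compared with the share of all genes called. Of the 41 lists, those of proliferins, mitosis and G2/M and wound keratins had the highest shares of members higher in late cells, and those of Hedgehog, laminins and Notch the highest shares lower. Cytosolic ribosomal protein genes, of which 22 of 79 were higher and none lower, compare with 20.5% and 29.3% of all genes, and 6 were higher and 0 lower than early at W6, against 19 and 1 at W12. Median-ratio scaling gave 30 higher and none lower, quantile normalization 12 higher and 1 lower, and the count of calls was between 8 and 13 without either replicate of W1 or W2, W6 replicate 2 or W12 replicate 1. The lists were chosen with earlier results of these data known, so their counts are descriptions.

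**Figure D5:**
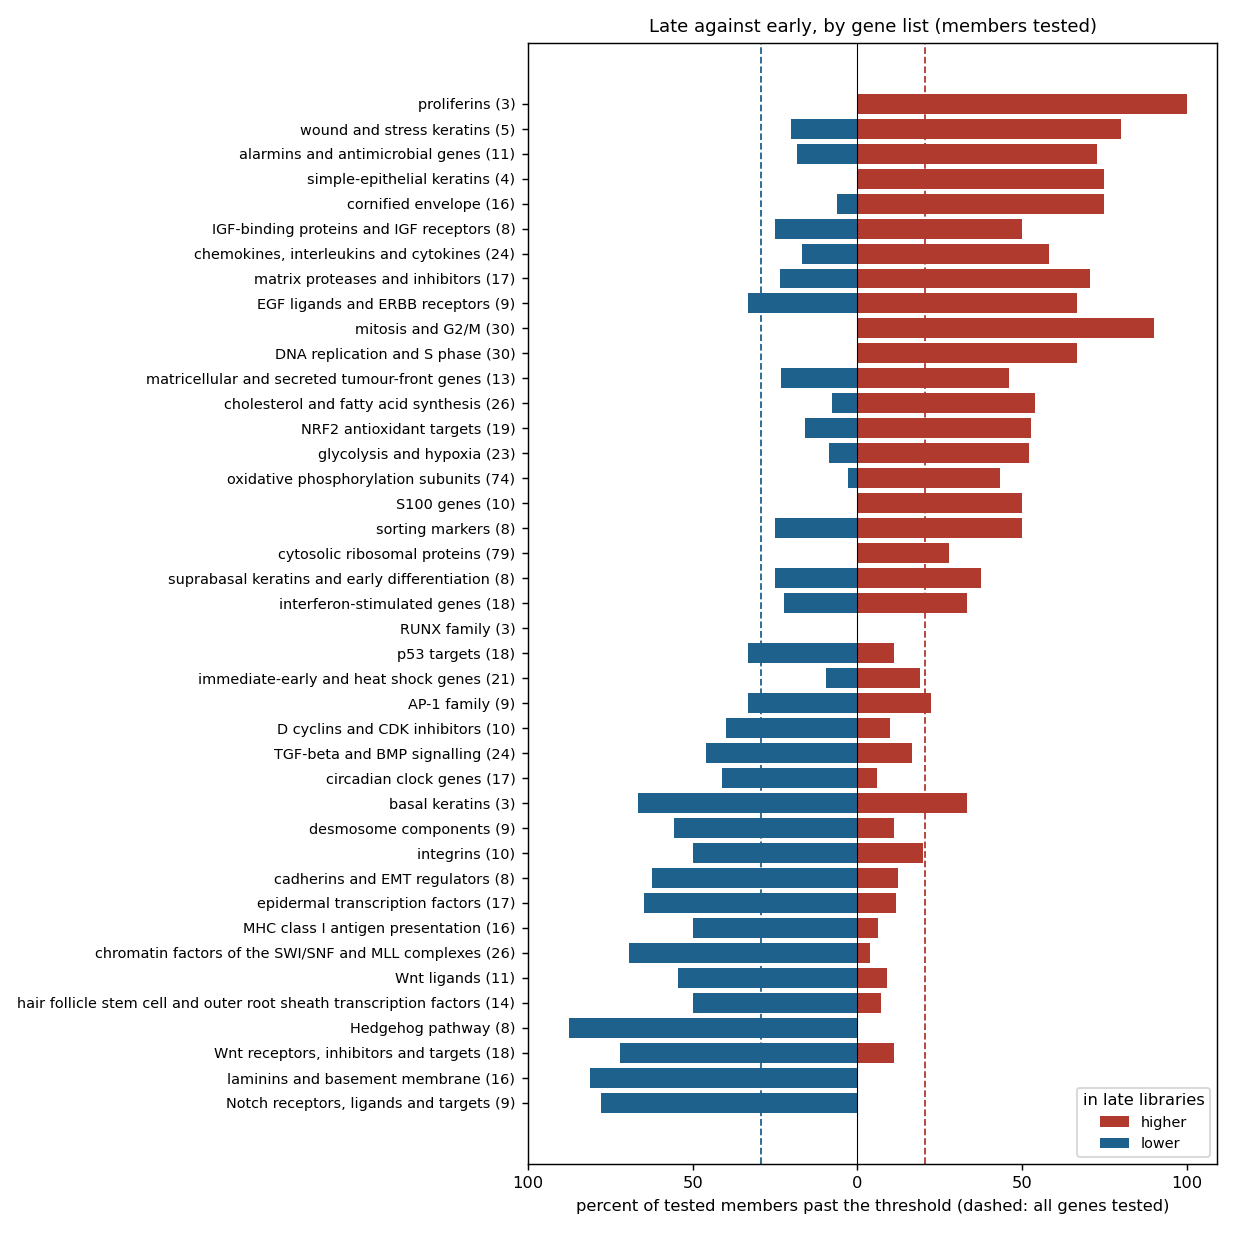
Percent of tested members (x axis) called higher (right) or lower (left) in late against early libraries for 41 gene lists (y axis, members tested in brackets), ordered by median difference. Dashed lines mark the share over all genes tested, 20.5% higher and 29.3% lower.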

How the data were processed

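Cells were sorted into TRI Reagent, and their RNA was made into low-input SMARTer libraries and sequenced, on NextSeq or NovaSeq per the labels and on NovaSeq per the study's methods. The authors trimmed reads with Skewer, quantified them with Salmon (1.4.0) on a GENCODE GRCm38 index extended with the transgene, and deposited gene-level TPM, made with Tximport (1.12.3). Each TPM column sums to 1000000, so depth is unknown and no counting interval is given. A second deposited table, holding the authors' own placode comparison, was not used.

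Genes averaging 1 TPM or more across the 10 libraries entered limma (3.58.1, R 4.3.3) on log2(TPM + 1), a scale that understates changes of low genes. The fit had 1 mean per timepoint, with D0 contributing to the estimate of spread only, empirical Bayes with a trend, and Benjamini-Hochberg adjustment at 0.05. Late minus early was the mean of W6 and W12 minus the mean of W1 and W2. The procedure was also run on simulated data with inserted differences, and no result here rests on that run. Labels call the replicates biological; animals per library are not given for RNA. Named genes were the 12 largest rises and falls among called genes without overlap (pseudogenes, predicted and mitochondrial genes left out), the 6 largest in each direction that passed against early at both W6 and W12 but not in W12 against W6, the 5 largest opposite in each order, up to 4 per list, the 3 most abundant markers per cell type, and the transgene, Sox9 and sorting genes. Retnlg, Elane, Cxcr2, Lgr5, Cd3e, Cd3d, Cd3g, Lck, Fbn1, Cd207, Erbb2, Erbb3, Egfr, Xist and Eif2s3y were named outside that rule, after their values were seen. One gene that this rule names is not reported here. Members and lists were chosen with earlier results of these data known. Promoters came from RefSeq (GRCm38.p6) and lengths from GENCODE GRCm38 gene models. Alternatives covered the pseudocount, filter, scaling, design, block and each library left out.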

Additional observations from a re-analysis of the deposited data

Results flagged for a closer look

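Genes were taken up here when W6 and W12 differed from the early libraries in opposite directions, both past the threshold. There were 47 such genes, 32 lower at W6 and higher at W12 and 15 in the other order. The 5 largest in each order are listed. A difference between W12 and W6 is therefore built into the choice, and the values below describe it without a test. Lower at W6 and higher at W12 were Cd74, Gm18445, Igtp, H2-Aa and Gm7897, with W12 minus W6 differences on the log2(TPM + 1) scale of 4.98, 5.72, 3.98, 4.02 and 2.95. Higher at W6 and lower at W12 were Sdr16c6, 2210409D07Rik, Slc12a2, Slc2a4 and Zbtb7c, with differences of -2.70, -2.36, -2.09, -1.91 and -2.29. Gm18445 and Gm7897 are predicted genes that may share reads with their parent genes. In the W12 libraries the endothelial list summed to 77.1 and 164 TPM, against 1.1 and 2.96 at W6, and its part in these differences was not tested. With 2 libraries per timepoint, no single library could be examined as standing apart from its group.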

How the results depend on the processing

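No named gene that passed the threshold changed direction under any alternative run, but the balance of higher and lower genes for W12 against W6 turned with median-ratio scaling (1063 higher, 845 lower) and without W12 replicate 1 (470 and 291). For that comparison, testing all genes above 0 TPM gave 1181 higher and 1244 lower. Some counts of genes past the threshold moved by over 1.5 times. Requiring a log2 difference of at least 1 left 2235 genes late against early, 1390 for W12 against W6, 1448 for W6 against early, 3244 for W12 against early and 771 for W6 against W2 with W12 against W1. Testing all genes above 0 TPM left 2267 for W6 against early and 546 for the pair without shared libraries, with more genes tested. Fitting only the 8 libraries gave 2275 for that pair. Leaving out each library in turn gave 4931 to 7053 genes late against early, 761 to 3223 for W12 against W6, 1704 to 4400 for W6 against early, 4072 to 7111 for W12 against early and 179 to 2277 for the pair. For W12 against W6, the count was 761 without W12 replicate 1, 1285 without W12 replicate 2 and 1600 without W6 replicate 1. For W6 against early it was 1704 without W2 replicate 1, 1914 without W2 replicate 2, 1996 and 2084 without W1 replicates 1 and 2, and 1902 without W6 replicate 2. For W12 against early it was 4072 without W12 replicate 1. For the pair it was 179 and 268 without W2 replicates 1 and 2, 774 and 817 without W1 replicates 1 and 2, 862 without W6 replicate 2, 816 and 821 without W12 replicates 1 and 2, and 2277 and 2273 without D0 replicates 1 and 2. A lone library was then assumed to vary like the other groups, and the cause of the other moves was not tested. Replicate numbers were not used as pairs in the main fit. Only W1 with W2 had a correlation of deviations over 0.1 (0.182), and with 2 replicates per timepoint this check cannot exclude pairing. With the replicate number as a block the counts were 6210 late against early, 2163 for W12 against W6, 2993 for W6 against early, 6172 for W12 against early and 1030 for the pair. The correlation for W6 with W12 was -0.115, and with the W12 numbers crossed, a choice made after seeing the data, the block gave 2236 genes for W12 against W6. The counts of list members called late against early moved as well, for 21 of the 41 lists with a log2 difference of at least 1, 13 with W1 and W2 and W6 and W12 each merged, 10 with all genes above 0 TPM, and 1 each with a mean of 5 TPM, quantile normalization, no trend and the 8 libraries alone. With the merged means, interferon-stimulated genes went from 10 to 2, epidermal transcription factors from 13 to 6, matrix proteases from 16 to 9, and cytokines from 18 to 11. Leaving out single libraries moved 48 list counts and left 362 within 1.5 times. Among named genes, Krtdap, Cebpa, Fosl1, Ccnd1 and Trbc1 lost their call without several single libraries. The number of libraries, 2 per timepoint, limits every estimate of spread, and depth could not be judged from TPM.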
